A study of Mus musculus with 6 samples.

Results

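The collagen chain genes were taken as every protein-coding mouse gene whose symbol reads Col, a number, a and a number, the names by which the chains of collagen types are known. This rule found 44 genes among the 47729 genes counted, and it used no measured value. By type, 9 encode fibrillar chains (types I, II, III, V and XI), 8 encode chains of basement membrane collagens (types IV, XV and XVIII) and 27 encode chains of the other types.

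The RNA of CD144-enriched cells was sequenced in bulk, these being cells pulled from ischemic muscle with beads against VE-cadherin (the product of Cdh5), an adhesion protein of endothelial cells (ECs). WT mice that received an adenovirus encoding GFP, a fluorescent marker (WT + GFP), were compared with Leene-knockout mice given the same virus (KO + GFP) and with knockout mice injected with an adenovirus carrying human LEENE, a long noncoding RNA (KO + LEENE). All mice ate a high-fat, high-sucrose diet and underwent hind limb ischemia surgery, were injected in the muscle on days 1 and 4 by the labels (the study's methods give another day for the second dose), and were sampled after 1 week. The comparison of KO + GFP with WT + GFP asks what deletion of the Leene locus changes. That of KO + LEENE with KO + GFP asks what the human RNA changes in the knockout. The knockout is 1 line made by CRISPR/Cas9 deletion on the C57BL/6J background, the virus reaches other cells of the muscle besides ECs, and every group carries a virus. The diet began when mice were 8 weeks old and lasted 16 weeks before surgery, by the study's methods. The sexes of these mice, and whether several mice entered a library, are not given in the sources used here for these libraries. The deleted gene was not analysed here, so the genotype was not checked.

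Each group had 2 libraries, with 1770992 to 5602603 reads assigned to genes, the fewest in KO + LEENE. Libraries of a group differed little more than counting noise (median chi-square ratio 1.18 to 1.2 per gene, where 1 is counting noise alone), and the file headers carry 1 facility sample number per group. They were counted as 2 samples, and all P values below measure the spread between such libraries, which may be technical. Mitochondrially encoded genes took 50.1% and 50.9% of reads in WT + GFP and 33.6% to 34.3% elsewhere. Of the 12 endothelial markers, Cdh5 itself had 332 and 283 reads in the WT + GFP libraries, 322 and 196 in those of KO + GFP and 5 and 18 in those of KO + LEENE. Kdr, the VEGF receptor, had 808 and 708, then 13 and 9, then 47 and 41 reads. The label of EC enrichment is thus not borne out by every defining marker in every group. In such bulk samples fewer cells of a type and less RNA per cell cannot be told apart.

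Collagens are built from 3 chains that wind into a triple helix. Fibrillar collagens form the cables that give muscle connective tissue its strength and are classically products of fibroblasts, whereas type IV forms the sheet-like network of the basement membrane on which ECs sit. Other types decorate fibrils, span the cell membrane or form beaded filaments and anchoring structures. Each chain is hydroxylated, glycosylated and folded in the endoplasmic reticulum, trimmed outside the cell and cross-linked by oxidases.

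Type IV chains are encoded in pairs that start head to head, and the pair Col4a1 and Col4a2 encodes the chains of the most widespread type IV network. On GRCm38, Col4a1 (ENSMUSG00000031502, minus strand) lies at chr8:11198423-11312826 and Col4a2 (ENSMUSG00000031503, plus strand) at chr8:11312805-11449287, so that their first exons overlap by 22 bases. That overlap, chr8:11312805-11312826, is shown because both chains start in it, although their reads differed as described below. The strands are given as RefSeq has them on GRCm38.p6, each 5′ to 3′.
Col4a2 strand: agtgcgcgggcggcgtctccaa
Col4a1 strand: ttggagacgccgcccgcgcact
The letters CCAAT, the core of a promoter element bound by NF-Y, lie 32 bases before the start of Col4a2 and stand in capitals in chr8:11312761-11312790 (plus strand).
Upstream of Col4a2: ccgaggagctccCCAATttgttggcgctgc
Promoter windows of 250 bases before to 50 bases after the start were available for 35 of the 44 genes. CCAAT, read on both strands, was in 13 of these 35, among them Col1a2, Col4a1, Col4a2 and Col4a5, and in 37.4% of the 32851 windows of all genes. GGGCGG was in 22 of the 35 and in 35.7% of all windows, and TATAAA in 5 of the 35, including Col3a1, and in 13.6% of all windows.

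Collagen reads made up a different part of the library in each group. Their share was 0.0806% ± 0.00323 in the WT + GFP libraries, 1.64% ± 0.00718 in those of KO + GFP and 0.150% ± 0.003 in those of KO + LEENE (mean ± SD, n = 2 each). The shares of the 2 libraries of a group lay close together and those of the groups did not overlap. With mitochondrially encoded genes taken out of the total, the shares were 0.163%, 2.49% and 0.227%, and without Col14a1 that of KO + GFP was 0.582%. Because 3′ reads were counted without molecular identifiers, a share describes reads, and its exact binomial interval covers counting error only.

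Fibrillar chains held 0.0273% ± 0.00125 of reads in the WT + GFP libraries, 0.540% ± 0.000129 in those of KO + GFP and 0.00713% ± 0.000772 in those of KO + LEENE (SD, n = 2). Basement membrane chains held 0.00305% ± 7.13e-06 in the WT + GFP libraries, 0.0296% ± 0.00125 in those of KO + GFP and 0.0295% ± 0.000119 in those of KO + LEENE. The KO groups overlapped in this class and both lay above WT + GFP. For the other types the share was 0.0503% ± 0.00198, 1.07% ± 0.00856 and 0.114% ± 0.00211, and without Col14a1 it was 0.0498%, 0.0130% and 0.113%, so that the class was lowest in KO + GFP once that 1 gene was left out.

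**Figure D1:**
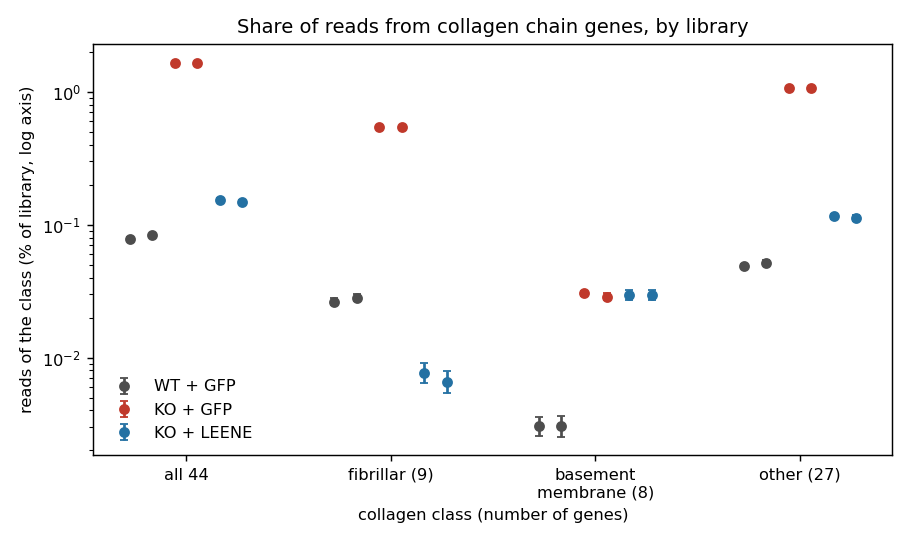
Share of each library's reads (%, log axis) from all 44 collagen chain genes and from each class, with 1 point per library and bars for the 95% exact binomial interval. The KO + GFP libraries sit highest for all genes, fibrillar and other chains, and level with KO + LEENE (0.0296% and 0.0295%) for basement membrane chains.

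The chains that led differed between groups. In WT + GFP, Col5a2 gave 31.6% and 31.1% of collagen reads and Col12a1 21.7% and 22.2%. KO + GFP libraries drew 64.3% and 64.6% from Col14a1 and 20.8% and 20.4% from Col3a1, and Col14a1, Col3a1, Col1a2 and Col5a2 together gave 97.2% and 97.3%. In KO + LEENE, Col12a1 gave 40.9% and 39.6% and Col27a1 24.9% and 26.3%. These shares compare reads and not molecules per length.

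Coverage was thin for most members. Only 26 of the 44 reached 10 reads in at least 1 library (6 fibrillar, 6 basement membrane and 14 others) and 11 reached 100. The remaining 18 stayed under 10 reads everywhere, and differences in them were not detectable at this depth, where 3 reads correspond to 0.536 to 1.69 counts per 1000000 reads (CPM). Their highest counts were 9 for Col26a1, 8 for Col11a1, 7 for Col19a1, 6 for Col5a3, Col11a2 and Col23a1, 5 for Col6a1 and Col15a1, 4 for Col4a6, Col6a3 and Col6a5, 3 for Col6a4, Col6a6 and Col9a3, 2 for Col9a1, Col20a1 and Col24a1, and 1 for Col10a1. Type XV, whose only chain is Col15a1, is among these. Col18a1, the chain of type XVIII and the source of endostatin, just reached 10 reads in 1 library, having 3 and 4 reads in the WT + GFP libraries, 6 and 0 in those of KO + GFP and 10 and 2 in those of KO + LEENE.

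**Figure D2:**
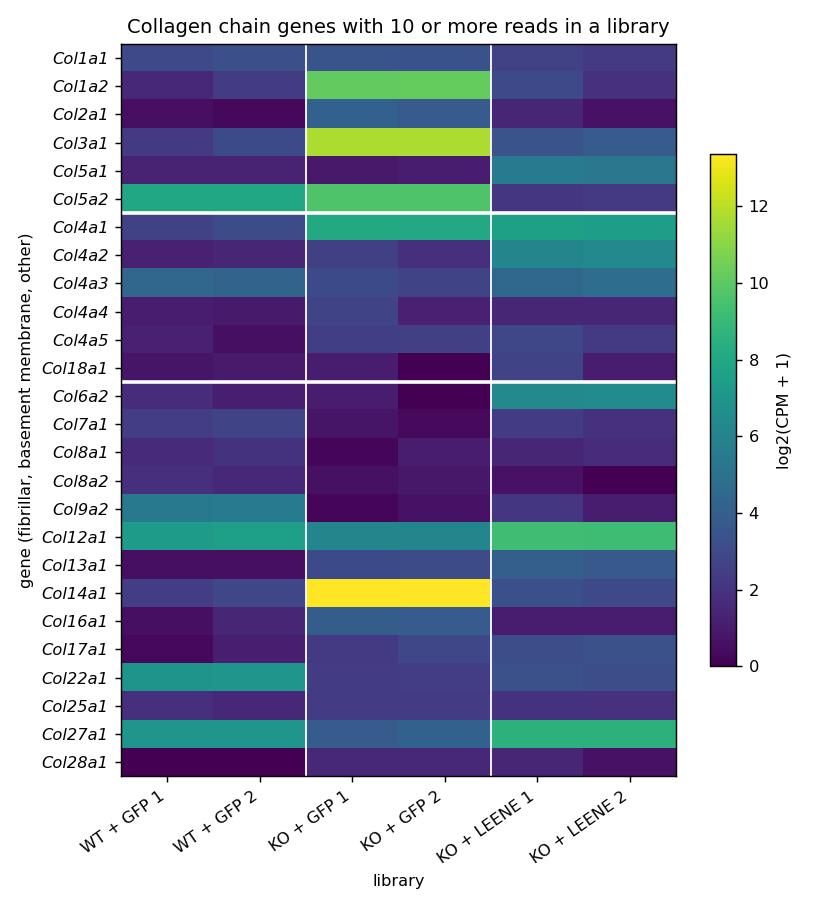
Level of the 26 collagen chain genes that reached 10 reads in a library, as log2(CPM + 1), with 1 column per library and white lines between groups and between classes. Col14a1, Col3a1, Col1a2 and Col5a2 are brightest in KO + GFP, and Col12a1 and Col27a1 in KO + LEENE.

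The edgeR test kept 8903 genes, among them 21 collagen chain genes (6 fibrillar, 4 basement membrane and 11 others). A gene that entered only because 1 group was high had to differ somewhere, so the counts that follow describe these 21 and are no evidence about the 44. An adjusted P value under 0.05 (Benjamini-Hochberg over the 8903 genes) is called a change. Between KO + GFP and WT + GFP, 19 of the 21 changed, 13 higher and 6 lower, beside 70.1% of all genes tested (34.2% higher and 35.9% lower). Their median log2 fold change was 1.84, against -0.09 for all genes. Between KO + LEENE and KO + GFP, 16 changed, 6 higher and 10 lower, beside 67.8% of all genes (32.8% higher and 34.9% lower), with medians of -0.31 and -0.01. Between KO + LEENE and WT + GFP, 14 changed, 9 higher and 5 lower, beside 70.7% of all genes (33.9% higher and 36.9% lower), with medians of 0.48 and -0.11. Shares near these backgrounds are not a result about collagens. The 3 comparisons share libraries, so their values are given side by side and not as independent tests.

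Which way the counts leaned depended on the scaling. TMM, the normalization used, puts the median gene near 0, whereas scaling by total reads alone moved the median of all genes to -0.57, 1.07 and 0.50 in the 3 comparisons. With that scaling 11 collagen chain genes were higher and 6 lower in KO + GFP against WT + GFP, beside 29.6% and 44.2% of all genes. In KO + LEENE against KO + GFP 11 were higher and 8 lower, beside 50.3% and 24.6%, and in KO + LEENE against WT + GFP 10 were higher and 3 lower, beside 43.5% and 29.1%. The lean toward lower in the second comparison was thus lost. Calls of all genes were 51.5% lower with TMM and 32.9% lower with total reads in that comparison, 51.2% and 59.9% in the first and 52.1% and 40.1% in the third.

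**Figure D3:**
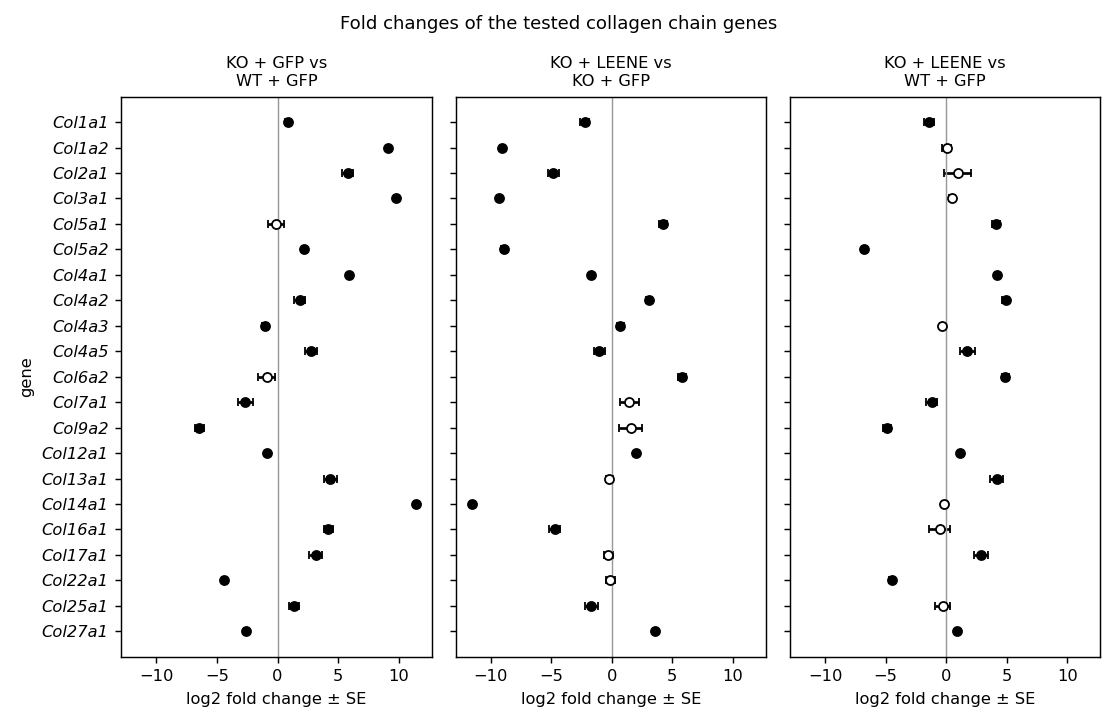
Log2 fold change ± SE from edgeR (TMM) for the 21 collagen chain genes tested, in 3 comparisons, with filled points for an adjusted P value under 0.05 and open points for the rest. Col14a1 moves most in the first 2 panels (11.42 and -11.58) and lies near 0 in the third (-0.16).

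The chains of type III, the fibrillar collagen of distensible tissue, and type I, the main fibrillar collagen of the body, did not all move together in size. Col3a1 (ENSMUSG00000026043, chr1:45311538-45349706, plus strand), the single chain of type III, had 17 and 29 reads in the WT + GFP libraries, 19017 and 12139 in those of KO + GFP and 17 and 25 in those of KO + LEENE. Reads for Col1a2 (ENSMUSG00000029661, chr6:4504814-4541544, plus strand), the α2 chain of type I, were 8 and 17, then 6491 and 4345, then 12 and 5. For Col1a1 (chr11:94936224-94953042, plus strand), the α1 chain that winds with it, they were 30 and 35, then 56 and 34, then 9 and 7. Col3a1 and Col1a2 were thus high in the KO + GFP libraries alone, while Col1a1 stayed low in all 6 and its raw reads overlapped between WT + GFP and KO + GFP.

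In KO + GFP against WT + GFP, Col3a1 was higher by 9.77 ± 0.17 (log2 fold change ± SE) and Col1a2 by 9.13 ± 0.18 (edgeR adjusted P = 2.58e-291), while Col1a1 was higher by 0.86 ± 0.26 (edgeR adjusted P = 0.00199). In KO + LEENE against KO + GFP the log2 fold changes were -9.30 ± 0.17 for Col3a1, -9.08 ± 0.19 for Col1a2 and -2.26 ± 0.37 for Col1a1, all called. The adjusted P values of Col3a1 in both comparisons were too small for the software to print as other than 0. Against WT + GFP, KO + LEENE did not pass the test for Col3a1 (0.48 ± 0.23, edgeR adjusted P = 0.154) or Col1a2 (0.05 ± 0.38, edgeR adjusted P = 0.926), whereas Col1a1 was lower (-1.40 ± 0.41, edgeR adjusted P = 0.000998), a call lost with scaling by total reads (edgeR adjusted P = 0.105) and in DESeq2 (adjusted P = 0.0612).

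Reads of Col1a2 per read of Col1a1 were 0.267 and 0.486 in the WT + GFP libraries, 116 and 128 in those of KO + GFP and 1.33 and 0.714 in those of KO + LEENE. This read ratio is not a ratio of chains, since 3′ reads of different genes are not on 1 scale. The call for Col1a1 in KO + GFP was lost without WT + GFP replicate 1 (0.65, edgeR adjusted P = 0.0709), without KO + GFP replicate 1 (0.76, edgeR adjusted P = 0.0521), with scaling by total reads (0.37, edgeR adjusted P = 0.19) and in DESeq2 (0.78, adjusted P = 0.238). Without WT + GFP replicate 2, Col3a1 passed in KO + LEENE against WT + GFP (0.97, edgeR adjusted P = 0.0245), and it passed with scaling by total reads (1.14, edgeR adjusted P = 0.000411). Of the 9816 exonic bases of Col3a1, 141 overlap another gene, ENSMUSG00000105211, in which reads cannot be told apart.

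Type V chains nucleate fibrils of type I, and the pair swapped its order. Col5a2 (ENSMUSG00000026042, chr1:45374321-45503282, minus strand) had 1122 and 1065 reads in the WT + GFP libraries, 4577 and 2994 in those of KO + GFP and 6 and 7 in those of KO + LEENE. Col5a1 (chr2:27886425-28039514, plus strand) had 7 and 6, then 5 and 4, then 79 and 69 reads. Reads of Col5a2 per read of Col5a1 were 160 and 178, then 915 and 749, then 0.0760 and 0.101. Col5a2 was the only fibrillar chain above 100 reads in WT + GFP, and Col5a1 the only one above 30 in KO + LEENE.

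For Col5a2 the log2 fold change was 2.18 ± 0.11 in KO + GFP against WT + GFP (edgeR adjusted P = 7.65e-77), -8.94 ± 0.19 in KO + LEENE against KO + GFP (edgeR adjusted P = 1.3e-264) and -6.76 ± 0.20 in KO + LEENE against WT + GFP (edgeR adjusted P = 8.32e-169). For Col5a1 it was -0.13 ± 0.66 (edgeR adjusted P = 0.88), 4.22 ± 0.37 (edgeR adjusted P = 1.41e-28) and 4.09 ± 0.33 (edgeR adjusted P = 1.96e-32). Of 8490 exonic bases of Col5a1, 212 overlap 2810430I11Rik and Gm13372. Col3a1 and Col5a2 lie tail to tail on chromosome 1, 24614 bases apart, and reads of Col3a1 per read of Col5a2 were 0.0152 and 0.0272 in the WT + GFP libraries, 4.16 and 4.05 in those of KO + GFP and 2.83 and 3.57 in those of KO + LEENE.

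Col2a1, the chain of cartilage type II collagen, was seen almost solely in KO + GFP, with 93 and 48 reads there, against 2 and 1 for WT + GFP and 3 and 1 for KO + LEENE. The ratio of TMM-scaled reads was 61.9 for KO + GFP over WT + GFP (95% counting interval 20.7 to 304) and 30.3 for KO + GFP over KO + LEENE (11.6 to 113), both called by edgeR (adjusted P = 9.12e-35 and 8.83e-25). KO + LEENE and WT + GFP, with 4 and 3 reads in all, are too sparse for a fold, and the test did not pass (edgeR adjusted P = 0.442). The type XI chains that join type II in cartilage fibrils, Col11a1 and Col11a2, did not reach 10 reads in any library.

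**Figure D4:**
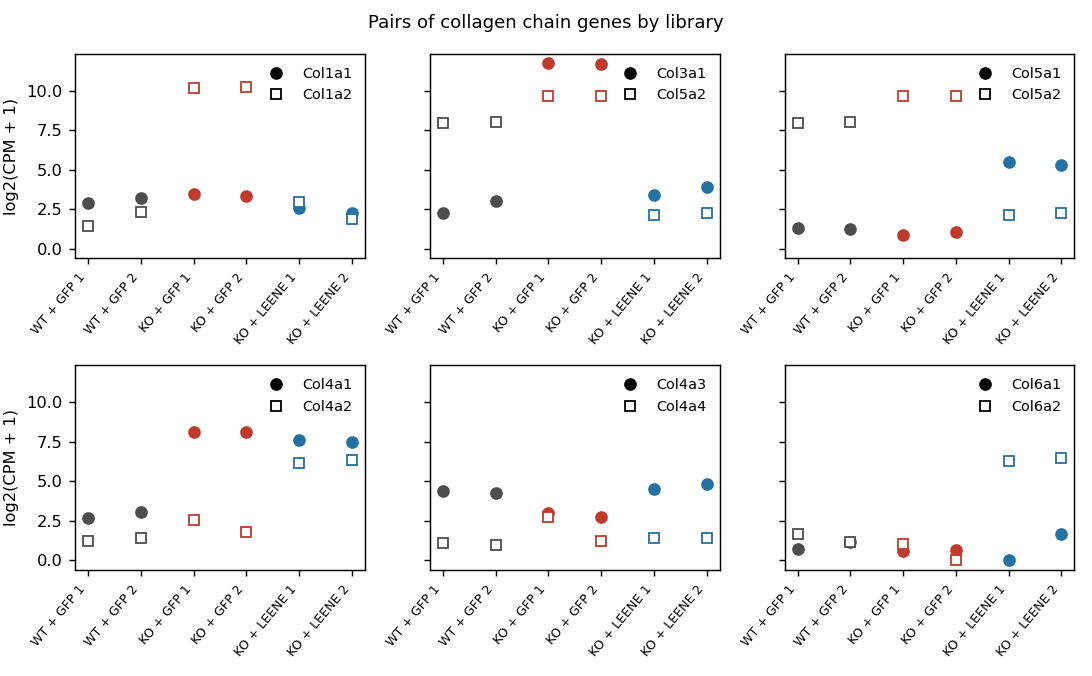
Level as log2(CPM + 1) of 6 pairs of collagen chain genes in each library (filled circles and open squares mark the genes of a pair, colour marks the group). Col1a2 leaves Col1a1 far behind in KO + GFP, Col5a1 and Col5a2 swap places in KO + LEENE, and Col4a1 and Col4a2 come closest in reads in KO + LEENE (2.74 and 2.29 reads of Col4a1 per read of Col4a2).

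Of the 4 basement membrane chains tested, Col4a1, Col4a2 and Col4a5 were higher in both knockout groups than in WT + GFP. Col4a1, the α1 chain, had 24 and 31 reads in the WT + GFP libraries, 1569 and 984 in those of KO + GFP and 337 and 323 in those of KO + LEENE. Col4a2, the α2 chain that joins it, had 6 and 7, then 27 and 9, then 123 and 141 reads. Col4a1 was abundant in both knockout groups and Col4a2 in KO + LEENE alone, although the genes start in the 22 shared bases shown above.

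The log2 fold change of Col4a1 was 5.92 ± 0.13 in KO + GFP against WT + GFP (edgeR adjusted P = 5.98e-269), -1.72 ± 0.08 in KO + LEENE against KO + GFP (edgeR adjusted P = 2.07e-81) and 4.19 ± 0.15 in KO + LEENE against WT + GFP (edgeR adjusted P = 5.69e-128). That of Col4a2 was 1.84 ± 0.47 (edgeR adjusted P = 0.000192), 3.09 ± 0.24 (edgeR adjusted P = 2.5e-35) and 4.92 ± 0.29 (edgeR adjusted P = 5.55e-58). Without KO + GFP replicate 1 the first of these fell short of the threshold (1.15, edgeR adjusted P = 0.144). Reads of Col4a1 per read of Col4a2 were 4 and 4.43 in the WT + GFP libraries, 58.1 and 109 in those of KO + GFP and 2.74 and 2.29 in those of KO + LEENE. In Col4a2, 65 of 6619 exonic bases overlap Col4a1 or Gm15419.

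Of the chains of the specialised type IV networks of kidney, lung and other sites, Col4a3 gave the most reads of its class in WT + GFP, 65.9% and 58.7% of basement membrane chain reads, and the others were sparse. Col4a3, the chain in which the Goodpasture antigen lies, had 91 and 74 reads in the WT + GFP libraries, 40 and 21 in those of KO + GFP and 38 and 48 in those of KO + LEENE. It was lower in KO + GFP relative to WT + GFP (-1.04 ± 0.24, edgeR adjusted P = 2.65e-05) and higher in KO + LEENE relative to KO + GFP (0.71 ± 0.27, edgeR adjusted P = 0.0137), while KO + LEENE against WT + GFP gave -0.32 ± 0.22 (edgeR adjusted P = 0.18) and turned positive, at 0.34, with scaling by total reads. The second call was lost in DESeq2 (0.84, adjusted P = 0.0985), without KO + GFP replicate 2 (0.54, edgeR adjusted P = 0.114) and without KO + LEENE replicate 2 (0.60, edgeR adjusted P = 0.119). As many as 563 of its 9967 exonic bases overlap C430014B12Rik. Its partner Col4a4, which starts 71 bases away on the other strand, had 5 and 4, then 32 and 5, then 3 and 3 reads, so that only KO + GFP replicate 1 stood above the rest. It did not enter the test.

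Col4a5, the X-linked α5 chain, had 6 and 2 reads in the WT + GFP libraries, 26 and 17 in those of KO + GFP and 11 and 7 in those of KO + LEENE. It was higher in KO + GFP relative to WT + GFP by 2.78 ± 0.51 (edgeR adjusted P = 1.36e-07). KO + LEENE against KO + GFP gave -1.03 ± 0.43 (edgeR adjusted P = 0.0274), a direction that turned to 0.12 with scaling by total reads, and the call was lost in DESeq2 (adjusted P = 0.431), without a filter (edgeR adjusted P = 0.178), without KO + GFP replicate 1 (edgeR adjusted P = 0.137), without KO + GFP replicate 2 (edgeR adjusted P = 0.0584), without KO + LEENE replicate 2 (edgeR adjusted P = 0.256) and with the replicate number as a block (edgeR adjusted P = 0.0527). The rise in KO + LEENE over WT + GFP (1.75 ± 0.63, edgeR adjusted P = 0.00833) was lost in DESeq2 (1.85, adjusted P = 0.115), without WT + GFP replicate 2 (1.23, edgeR adjusted P = 0.122) and without KO + LEENE replicate 1 (1.43, edgeR adjusted P = 0.119). Col4a6, which shares its start region, had at most 4 reads.

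Fibril-associated collagens, which coat fibrils without forming them, went in opposite directions. Col14a1 (ENSMUSG00000022371, chr15:55307750-55520803, plus strand) had 20 and 26 reads in the WT + GFP libraries, 58829 and 38483 in those of KO + GFP and 15 and 12 in those of KO + LEENE. Its log2 fold changes were 11.42 ± 0.16 and -11.58 ± 0.16 in the comparisons with KO + GFP, with adjusted P values printed as 0, and -0.16 ± 0.21 in KO + LEENE against WT + GFP (edgeR adjusted P = 0.711), which turned to 0.51 with scaling by total reads. Col14a1 was the collagen with the largest log2 fold change in each of the first 2 comparisons.

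Col12a1 (chr9:79598991-79718831, minus strand), a close relative that also binds type I fibrils, had 770 and 760 reads in the WT + GFP libraries, 390 and 252 in those of KO + GFP and 1106 and 1051 in those of KO + LEENE. It was lower in KO + GFP relative to WT + GFP (-0.86 ± 0.08, edgeR adjusted P = 1.26e-22), and higher in KO + LEENE relative to KO + GFP (1.97 ± 0.08, edgeR adjusted P = 2.76e-102) and WT + GFP (1.11 ± 0.07, edgeR adjusted P = 3.43e-46). Col12a1 thus ran opposite to Col14a1 in the first 2 comparisons.

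Col16a1, also fibril associated, had 2 and 7 reads in the WT + GFP libraries, 80 and 49 in those of KO + GFP and 2 and 2 in those of KO + LEENE. It was higher by 4.19 ± 0.37 in KO + GFP than in WT + GFP (edgeR adjusted P = 4.65e-27), and the ratio of KO + GFP to KO + LEENE was 27.7 in TMM-scaled reads (95% counting interval 10.6 to 103, edgeR adjusted P = 9.98e-23). The difference of KO + LEENE from WT + GFP did not pass (edgeR adjusted P = 0.604), and its sign turned without WT + GFP replicate 2 and with scaling by total reads.

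Among the fibril-associated chains of type IX and type XXII, WT + GFP was highest. Col22a1, a collagen of tissue junctions such as that of muscle and tendon, had 555 and 537 reads in the WT + GFP libraries, 23 and 16 in those of KO + GFP and 16 and 15 in those of KO + LEENE. It was lower than in WT + GFP by a log2 fold change of -4.40 ± 0.17 in KO + GFP (edgeR adjusted P = 1.43e-112) and -4.52 ± 0.18 in KO + LEENE (edgeR adjusted P = 4.8e-106). KO + LEENE against KO + GFP gave -0.11 ± 0.37 (edgeR adjusted P = 0.816), which turned to 1.04 (edgeR adjusted P = 0.00913) with scaling by total reads.

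Col9a2, the α2 chain of type IX, had 185 and 194 reads in the WT + GFP libraries, 1 and 2 in those of KO + GFP and 6 and 2 in those of KO + LEENE. The ratio of WT + GFP to KO + GFP was 96.0 in TMM-scaled reads (95% counting interval 32.6 to 467, edgeR adjusted P = 7e-58), and the log2 fold change in KO + LEENE against WT + GFP was -4.92 ± 0.32 (edgeR adjusted P = 1.8e-47). Its difference between the knockout groups did not pass (edgeR adjusted P = 0.14), though it passed as higher in KO + LEENE with scaling by total reads (edgeR adjusted P = 0.00871), and so few reads give no firm fold. The chains that would complete type IX, Col9a1 and Col9a3, had at most 2 and 3 reads in any library.

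Col27a1 (chr4:63214004-63334991, plus strand), a fibrillar-like chain placed by its type number among the others here, had 588 and 515 reads in the WT + GFP libraries, 75 and 62 in those of KO + GFP and 673 and 699 in those of KO + LEENE. It was lower in KO + GFP relative to WT + GFP (-2.61 ± 0.12, edgeR adjusted P = 2.7e-83), and higher in KO + LEENE relative to KO + GFP (3.54 ± 0.12, edgeR adjusted P = 4.88e-147) and than in WT + GFP (0.93 ± 0.08, edgeR adjusted P = 1.33e-27).

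Type VI forms beaded filaments around cells from several kinds of chain, and only Col6a2 was counted in number. It had 10 and 5 reads in the WT + GFP libraries, 6 and 0 in those of KO + GFP and 138 and 156 in those of KO + LEENE, whereas Col6a1 had at most 5 and Col6a3 at most 4 reads. Col6a2 was higher in KO + LEENE relative to KO + GFP (5.78 ± 0.34, edgeR adjusted P = 1.94e-58) and WT + GFP (4.88 ± 0.27, edgeR adjusted P = 1.97e-62). KO + GFP against WT + GFP gave -0.90 ± 0.71 (edgeR adjusted P = 0.26), and without KO + GFP replicate 1, which leaves that group at 0 reads, the test passed (edgeR adjusted P = 0.0248).

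Among the membrane-spanning collagens, Col13a1, found at the neuromuscular junction, had 2 and 2 reads in the WT + GFP libraries, 40 and 27 in those of KO + GFP and 28 and 22 in those of KO + LEENE. Its ratio to WT + GFP was 22.1 in KO + GFP (95% counting interval 8.22 to 83.3, edgeR adjusted P = 3.71e-16) and 19.1 in KO + LEENE (7.02 to 73.0, edgeR adjusted P = 3.12e-13). Col17a1, the hemidesmosome collagen of epithelia, had 1 and 5, then 21 and 22, then 14 and 16 reads. Both knockout groups lay above WT + GFP for each gene. For Col17a1 the log2 fold changes over WT + GFP were 3.18 ± 0.54 in KO + GFP (edgeR adjusted P = 1.11e-08) and 2.87 ± 0.58 in KO + LEENE (edgeR adjusted P = 2.12e-06). The difference between the knockout groups was -0.20 ± 0.30 for Col13a1 (edgeR adjusted P = 0.573) and -0.31 ± 0.38 for Col17a1 (edgeR adjusted P = 0.494), and turned positive and passed with scaling by total reads (0.95, edgeR adjusted P = 0.00277, and 0.85, edgeR adjusted P = 0.0375).

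Col25a1, a membrane-spanning collagen needed by motor axons, had 11 and 8 reads in the WT + GFP libraries, 23 and 15 in those of KO + GFP and 5 and 5 in those of KO + LEENE. It was higher in KO + GFP relative to WT + GFP (1.38 ± 0.43, edgeR adjusted P = 0.00251) and lower in KO + LEENE relative to KO + GFP (-1.69 ± 0.51, edgeR adjusted P = 0.00177). Neither call held in DESeq2 (adjusted P = 0.172 and 0.131) or with scaling by total reads (edgeR adjusted P = 0.0502 and 0.356). KO + LEENE against WT + GFP gave -0.31 ± 0.60 (edgeR adjusted P = 0.668).

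Col7a1, the anchoring fibril chain of skin, had 20 and 23 reads in the WT + GFP libraries, 4 and 1 in those of KO + GFP and 7 and 5 in those of KO + LEENE. It was lower in KO + GFP relative to WT + GFP (-2.65 ± 0.59, edgeR adjusted P = 1.58e-05). KO + LEENE against KO + GFP gave 1.44 ± 0.77 (edgeR adjusted P = 0.0894), which passed with scaling by total reads (2.57, edgeR adjusted P = 0.00111). The lower level in KO + LEENE than in WT + GFP (-1.21 ± 0.49, edgeR adjusted P = 0.0192) lost its call in DESeq2 (adjusted P = 0.343), with scaling by total reads (edgeR adjusted P = 0.315), without a filter (edgeR adjusted P = 0.0847), without WT + GFP replicate 2 (edgeR adjusted P = 0.14), without KO + LEENE replicate 1 (edgeR adjusted P = 0.0511) and without KO + LEENE replicate 2 (edgeR adjusted P = 0.175).

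The network-forming type VIII chains of vessel walls and Descemet's membrane were too sparse for the test. Col8a1 had 9 and 12 reads in the WT + GFP libraries, 1 and 4 in those of KO + GFP and 3 and 4 in those of KO + LEENE, and Col8a2 had 11 and 8, then 3 and 3, then 1 and 0. Col28a1, known from peripheral nerve, had 0 and 0, then 11 and 7, then 3 and 1 reads, which put KO + GFP at least 3.95-fold above WT + GFP in TMM-scaled reads against a floor of 3 reads per library.

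Read over all 3 groups, 10 of the 21 tested chains were higher in KO + GFP than in both other groups with both calls, beside 25.6% of all genes tested. They were Col1a1, Col1a2, Col2a1, Col3a1 and Col5a2 of the fibrillar chains, Col4a1 and Col4a5 of the basement membrane chains, and Col14a1, Col16a1 and Col25a1. Highest in KO + LEENE were 5 (Col4a2, Col5a1, Col6a2, Col12a1 and Col27a1), beside 24.3% of all genes, and highest in WT + GFP were 3 (Col7a1, Col9a2 and Col22a1), beside 26.5%. The other 3 fell in none of these patterns, beside 23.6%. These patterns hold for the TMM calls. Col1a1, Col4a5 and Col25a1 each lost a needed call in DESeq2 (adjusted P = 0.238, 0.431 and 0.172) and with scaling by total reads. So did Col7a1 (DESeq2 adjusted P = 0.343). With total reads, Col13a1 and Col17a1 gained a rise from KO + GFP to KO + LEENE. Col2a1 and Col16a1 stayed under 10 reads outside KO + GFP, so the filter favoured their pattern. The counts are thus no evidence of an excess over all genes.

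The genes that make, trim and read collagen were described from 8 lists of 65 names, of which 64 were counted and 32 tested. In each comparison 24 of the 32 changed. Against WT + GFP, 14 were higher and 10 lower in KO + GFP, and 14 higher and 10 lower in KO + LEENE, while KO + LEENE against KO + GFP gave 11 higher and 13 lower. Scaling by total reads made these 12 and 13, 16 and 9, and 14 and 11, so the lean of the first and the last of these comparisons turned. The 24 of 32 lie near the backgrounds given above. From each list the pair of genes with the highest mean CPM is named.

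Of the prolyl hydroxylases, which stabilise the helix, 6 of 10 were tested. P4ha3, a catalytic subunit, had 47 and 36 reads in the WT + GFP libraries, 35 and 23 in those of KO + GFP and 738 and 791 in those of KO + LEENE, a log2 rise of 4.93 ± 0.14 over KO + GFP (edgeR adjusted P = 1.07e-183). P4hb, the subunit shared by the collagen prolyl 4-hydroxylases and a disulfide isomerase, had 2 and 2, then 249 and 128, then 117 and 95 reads, so that both knockout groups lay above WT + GFP. In the list, 3 were higher and 1 lower in KO + GFP than in the WT + GFP libraries, 3 higher and 2 lower in KO + LEENE than in those of KO + GFP and 4 higher and 2 lower in those of KO + LEENE than in WT + GFP. In all, 4, 5 and 6 of the 6 were called, beside 70.1%, 67.8% and 70.7% of all genes. Scaling by total reads made the counts higher and lower 2 and 2, 4 and 1, and 4 and 1.

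Lysyl hydroxylation was represented by 2 tested genes of 5. Plod3, which also adds glucose to collagen, had 108 and 106 reads in the WT + GFP libraries, 4405 and 2815 in those of KO + GFP and 3 and 2 in those of KO + LEENE, with a log2 fold change of 5.46 ± 0.12 in KO + GFP against WT + GFP (edgeR adjusted P = 2.51e-246). Plod2, the hydroxylase of the telopeptides, had 49 and 27, then 188 and 114, then 11 and 20 reads. Both were highest in KO + GFP, where Col3a1 and Col1a2 were also highest.

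Of the chaperones and export factors 5 of 9 counted were tested, with 3 higher and 1 lower in KO + GFP relative to WT + GFP, 1 higher and 3 lower in KO + LEENE relative to KO + GFP, and 3 higher and 1 lower in KO + LEENE relative to WT + GFP. The 4 of 5 called in each stand beside 70.1%, 67.8% and 70.7% of all genes. Hspa5, the main chaperone of the endoplasmic reticulum, had 24 and 15 reads in the WT + GFP libraries, 1588 and 1053 in those of KO + GFP and 37 and 40 in those of KO + LEENE. Mia2, a receptor for the export of large cargo, had 23 and 16, then 7 and 5, then 448 and 447. They ran opposite to each other between the knockout groups, with log2 fold changes of -4.87 ± 0.12 (edgeR adjusted P = 4.01e-217) and 6.41 ± 0.22 (edgeR adjusted P = 3.56e-143) in KO + LEENE against KO + GFP.

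Of the genes of propeptide cleavage 6 of 8 were tested, with 1 higher and 5 lower in KO + GFP relative to WT + GFP and 3 higher and 1 lower in KO + LEENE relative to KO + GFP, beside 34.2% and 35.9% of all genes in the first of these comparisons and 32.8% and 34.9% in the second. Pcolce, the enhancer of C-propeptide cleavage, was the 1 higher, with 4 and 1 reads in the WT + GFP libraries, 306 and 193 in those of KO + GFP and 19 and 9 in those of KO + LEENE. Tll1, a procollagen C-proteinase, had 21 and 14, then 3 and 0, then 148 and 132 reads. Among cross-linking genes 3 of 6 were tested. Loxl2, a lysyl oxidase, had 231 and 206 reads in the WT + GFP libraries, 144 and 85 in those of KO + GFP and 49 and 51 in those of KO + LEENE, and Tgm2, a transglutaminase, had 53 and 40, then 650 and 390, then 0 and 5. Lox, the third tested, had 1 and 2, then 2 and 0, then 11 and 14 reads. It was higher in KO + LEENE relative to KO + GFP (log2 fold change 3.71 ± 0.79, edgeR adjusted P = 6.63e-06).

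Of 11 collagen-degrading proteases 3 were tested. Mmp2, the gelatinase that cuts type IV collagen, had 18 and 15 reads in the WT + GFP libraries, 10 and 7 in those of KO + GFP and 297 and 254 in those of KO + LEENE, a log2 rise of 5.22 ± 0.23 over KO + GFP (edgeR adjusted P = 1.33e-92). Mmp1a, an interstitial collagenase, had 0 and 1, then 7 and 3, then 81 and 77. Timp1, an inhibitor of these enzymes and 1 of 2 tested of 5 listed, had 138 and 139, then 180 and 109, then 0 and 1 reads, and was called lower in KO + LEENE than in KO + GFP (edgeR adjusted P = 1.37e-53). On a single read in KO + LEENE, the ratio of KO + GFP to KO + LEENE was 249 in TMM-scaled reads, with a 95% counting interval of 44.3 to 9851. The third protease tested, the membrane type Mmp16, had 3 and 3, then 62 and 36, then 1 and 3 reads. Mmp1a and Mmp2 were thus highest in KO + LEENE and Mmp16 in KO + GFP, and Timp1 was lowest in KO + LEENE. In KO + LEENE relative to KO + GFP, 2 proteases were called higher and 1 lower, beside 32.8% and 34.9% of all genes. Timp4, the other inhibitor tested, had 16 and 19, then 16 and 2, then 6 and 9 reads and passed in no comparison. It passed as lower in KO + GFP relative to WT + GFP with scaling by total reads (-1.05, edgeR adjusted P = 0.0247) and without KO + GFP replicate 1 (-2.38, edgeR adjusted P = 0.0174).

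Of 10 collagen receptors 5 were tested, with 1 higher and 2 lower in KO + GFP relative to WT + GFP, 3 of 5 beside 70.1% of all genes. Itgb1, the β1 integrin shared by the collagen-binding integrins, had 623 and 539 reads in the WT + GFP libraries, 1502 and 907 in those of KO + GFP and 1467 and 1423 in those of KO + LEENE. Itga2, the α2 integrin, had 564 and 530, then 246 and 165, then 2 and 0. KO + LEENE against KO + GFP gave a log2 fold change of 0.50 ± 0.09 for Itgb1 (edgeR adjusted P = 1.92e-07). For Itga2 the ratio of KO + GFP to KO + LEENE was 177 in TMM-scaled reads (95% counting interval 48.6 to 1464, edgeR adjusted P = 1.03e-76).

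**Figure D5:**
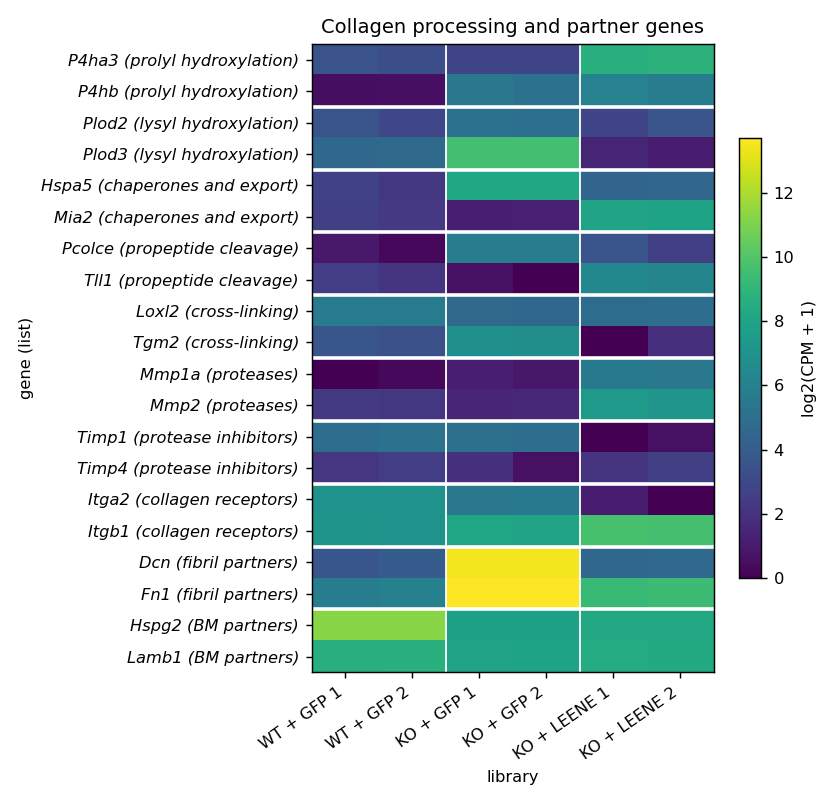
Level as log2(CPM + 1) of the pair of genes with the highest mean CPM in each of 10 lists of collagen processing, receptor and partner genes, by library, with white lines between groups and lists. Plod3, Hspa5, Dcn and Fn1 are brightest in KO + GFP, and P4ha3, Mia2, Tll1, Mmp1a and Mmp2 in KO + LEENE.

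The noncollagen partners of fibrils went in both directions. The pair with the highest mean CPM over the 6 libraries, a mean set by KO + GFP, was Dcn and Fn1. Dcn (decorin), a proteoglycan that binds type I fibrils, had 53 and 62 reads in the WT + GFP libraries, 63633 and 40842 in those of KO + GFP and 42 and 45 in those of KO + LEENE. Fn1 (fibronectin), on which collagen fibrils assemble, had 245 and 253, then 73191 and 48033, then 1054 and 1207. In WT + GFP the partners with most reads were others. Fbn1 (fibrillin 1), a microfibril glycoprotein, had 1850 and 1744, then 30 and 12, then 22 and 19 reads, and Thbs1 (thrombospondin 1) had 1140 and 997, then 800 and 549, then 667 and 602, both of them among the partners called lower in KO + GFP relative to WT + GFP. Of 13 partners 7 were tested, with 4 higher and 3 lower in KO + GFP relative to WT + GFP, 0 higher and 5 lower in KO + LEENE relative to KO + GFP by the TMM scaling (2 higher and 5 lower by total reads), and 1 higher and 2 lower in KO + LEENE relative to WT + GFP (3 higher and 2 lower by total reads). In all, 7, 5 and 3 of the 7 were called with TMM, beside 70.1%, 67.8% and 70.7% of all genes.

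In KO + GFP against WT + GFP, basement membrane partners did not all follow Col4a1. Hspg2 (perlecan), the heparan sulfate proteoglycan of the basement membrane, had 10948 and 10028 reads in the WT + GFP libraries, 1272 and 818 in those of KO + GFP and 546 and 555 in those of KO + LEENE, and Lamb1, a laminin β chain, had 1806 and 1679, then 1437 and 903, then 618 and 561. Hspg2 was lower in KO + GFP relative to WT + GFP (-2.94 ± 0.12, edgeR adjusted P = 4.58e-112), the comparison in which Col4a1 was higher. Of 14 partners 9 were tested, with 3 higher and 4 lower in KO + GFP relative to WT + GFP, 7 of 9 beside 70.1% of all genes. KO + LEENE against KO + GFP, in which Col4a1 was lower too, gave 0 higher and 5 lower, beside 32.8% and 34.9% of all genes. These counts turned to 5 higher and 2 lower with scaling by total reads, Hspg2 and Lamb1 among those that turned.

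Markers of other cells moved with the groups, and their part in the collagen values was not tested. The 12 fibroblast markers summed to 57.1 and 58.6 CPM in the WT + GFP libraries, 11390 and 11300 in those of KO + GFP and 114 and 117 in those of KO + LEENE. Dcn made up nearly all of the KO + GFP sum, while 5 of the 12 stayed under 10 reads everywhere, among them Lum and Thy1 at 0 or 1 read, and Pdgfra, a defining receptor, had 171 and 141, then 119 and 93, then 65 and 66 reads. In KO + GFP against WT + GFP 2 of the 6 tested were higher and 0 lower, and the counts were 2 higher and 3 lower in KO + LEENE against KO + GFP and 2 higher and 1 lower in KO + LEENE against WT + GFP. Scaling by total reads made these 2 and 2, 3 and 2, and 3 and 0, with Pdgfra then called lower in KO + GFP (-0.65, edgeR adjusted P = 2.01e-05). In KO + GFP against WT + GFP, 2 of 6 markers were thus called with TMM and 4 of 6 with total reads, beside 70.1% of all genes with TMM. Between KO + LEENE and KO + GFP, 5 of 6 were called with TMM, beside 67.8% of all genes. Between KO + LEENE and WT + GFP, 3 of 6 were called with TMM, beside 70.7%.

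The 12 macrophage markers summed to 69.0 and 82.4 CPM in the WT + GFP libraries, 847 and 813 in those of KO + GFP and 19.8 and 16.8 in those of KO + LEENE. Adgre1, the F4/80 antigen, had 1 and 2, then 1823 and 1060, then 3 and 1 reads, and Mrc1, a mannose receptor that also takes up collagen, had 40 and 43, then 1897 and 1217, then 17 and 9, while Cd68 had at most 1 read. Ptprc and C1qb went the other way in KO + GFP against WT + GFP. Ptprc had 176 and 172, then 18 and 19, then 4 and 5 reads, and C1qb had 32 and 37, then 1 and 5, then 3 and 2. Of 6 tested, 4 were higher and 2 lower in KO + GFP than in the WT + GFP libraries, 0 higher and 5 lower in KO + LEENE than in those of KO + GFP and 1 higher and 4 lower in those of KO + LEENE than in WT + GFP. Of all genes tested, 34.2% were higher and 35.9% lower in the first of these comparisons, 32.8% and 34.9% in the second and 33.9% and 36.9% in the third. These sums were highest in the libraries in which collagen reads were highest, and their part in it was not tested.

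The endothelial list summed to 423 and 390 CPM in the WT + GFP libraries, 2440 and 2623 in those of KO + GFP and 294 and 314 in those of KO + LEENE, and Emcn and Vwf had the highest mean CPM over the 6 libraries. Emcn (endomucin), with 14 and 8, then 12245 and 8648, then 8 and 7 reads, made up most of the KO + GFP sum, and Vwf had 81 and 53, then 158 and 92, then 317 and 340. In WT + GFP the list was led instead by Kdr (178 and 172 CPM), Erg (92.0 and 83.6 CPM), Cdh5 (73.2 and 68.6 CPM) and Pecam1 (46.5 and 42.4 CPM), none of which was called higher in KO + GFP. Of 10 tested, 3 were higher and 3 lower in KO + GFP than in the WT + GFP libraries, 3 higher and 6 lower in KO + LEENE than in those of KO + GFP and 2 higher and 3 lower in those of KO + LEENE than in WT + GFP. In all, 6, 9 and 5 of the 10 were called, beside 70.1%, 67.8% and 70.7% of all genes. Scaling by total reads made these 3 and 4, 4 and 4, and 4 and 3, so that the lean toward lower was lost in the second and turned in the third. Emcn was thus highest in KO + GFP, like Col14a1, and Vwf in KO + LEENE, like Col4a2, and the part of EC markers in the collagen values was not tested.

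Mural and skeletal muscle markers were low in every library. The 10 mural markers summed to 4.60 to 5.95 CPM in both GFP groups and to 39.0 and 51.4 CPM in KO + LEENE, led by Rgs5 and Myh11, with Acta2 at most 6 reads. The 10 skeletal muscle markers summed to 4.36 to 32.8 CPM, with Acta1 at 2 and 1, then 7 and 2, then 53 and 43 reads, Myh4 at 1 and 3, then 102 and 65, then 1 and 0, and Ckm at most 1. Their part in the collagen values was not tested.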

How the data were processed

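Per the file headers, the authors counted uniquely aligned reads per gene with featureCounts of Subread 2.0.0, without strand, over exons of Ensembl release 84 on GRCm38, so the deposited values are raw counts. The submitters' processing notes name bcl2fastq 2.18, STAR 2.5.4b and mm10, and the study's methods name mm9. Libraries were made with a 3′ single-cell kit without droplets, so reads do not scale with gene length, and reads in exons of overlapping genes are uncertain. Symbols came from GENCODE by Ensembl identifier (43465 of 47729 matched), and sequences from RefSeq.

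The fit used edgeR 4.0.16 (glmQLFit and glmQLFTest, its quasi-likelihood test) in R 4.3.3, on all 6 libraries in 1 fit, with TMM normalization and filterByExpr (minimum count 10, minimum total 15). Benjamini-Hochberg adjustment ran over 8903 genes, and SE is the log2 fold change over the square root of F. DESeq2 (version 1.42.0 here, a package the authors also used), other scalings, other filters, a replicate block and leaving out each library were alternatives. The method was tested on simulated data with far fewer and smaller changes than here, so that test does not bear on call rates this high. CPM are reads per 1000000 reads assigned to genes, and the heat maps add 1. Where a group held at most 3 reads in each library and the other reached 10 in a library, ratios carry a 95% counting interval instead of a bound, which was decided after the values were seen. A bound was kept where the group had no reads, as for Col28a1 in WT + GFP. The members and lists were chosen with earlier results of these data known. Each member with 10 or more reads in a library is given with its reads, the rest with their highest count, and of each other list the 2 genes with the highest mean CPM, beside Cdh5, Kdr and Adgre1. Mmp16, Lox, Fbn1, Thbs1, Erg, Pecam1, Lum, Thy1, Cd68, Ptprc, C1qb, Acta2 and Ckm were named after their values were seen. 1 further marker list is not reported here.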

Additional observations from a re-analysis of the deposited data

How the results depend on the processing

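The number of collagen chain genes called between KO + GFP and WT + GFP (19 of 21 tested) was 18 with DESeq2 (of 35 tested), 19 with DESeq2 size factors in edgeR, 17 with scaling by total reads and 21 without a filter (of 44 tested). Between KO + LEENE and KO + GFP (16) it was 13, 16, 19 and 16, and between KO + LEENE and WT + GFP (14) it was 11, 14, 13 and 15, with 38 tested by DESeq2 and 44 without a filter in both. Shares of the tested genes called were thus lower under these 2 alternatives. The minimum of 10 reads in every library left 7 of these genes in the test, with fewer calls by construction: 7 in the first comparison (3 higher), 6 in the second (3 higher and 3 lower) and 4 in the third (3 higher and 1 lower). Scaling by total reads gave 11 higher in the second comparison and 3 lower in the third, and DESeq2 also gave 3 lower in the third. Leaving out each library in turn gave 18 to 21, 15 to 17 and 13 to 15 calls, of 24 to 26 tested.

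With mitochondrially encoded genes taken out of the total (0.163%, 2.49% and 0.227% collagen reads) or without Col14a1 (0.582% in KO + GFP), the order of the groups was the same.

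The replicate numbers are shared by the groups, but libraries with the same number did not deviate together (correlations of 0.0325, 0.0134 and 0.0195), so the numbers do not pair them. With the replicate number as a block the calls were 19, 15 and 14, the one lost being Col4a5 between KO + LEENE and KO + GFP (edgeR adjusted P = 0.0527).

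Some log2 fold changes of single genes turned sign, and the cause was not tested. With scaling by total reads, KO + LEENE against KO + GFP turned to 0.95 for Col13a1, 0.85 for Col17a1, 1.04 for Col22a1, 0.12 for Col4a5, 0.45 for Hspg2, 0.39 for Lamb1, 0.18 for Loxl2, 0.55 for P4hb, 0.68 for Pdgfra and 1.11 for Timp4. That scaling turned KO + LEENE against WT + GFP to 0.51 for Col14a1, 0.11 for Col16a1, 0.35 for Col25a1, 0.34 for Col4a3, 0.033 for Pdgfra and 0.061 for Timp4, and KO + GFP against WT + GFP to -0.34 for Cdh5 and -0.034 for Timp1. Leaving out 1 library at a time, Col13a1 (-0.35 to 0.019) and Timp4 (-0.64 to 1.77) turned between the knockout groups, Col14a1 (-0.42 to 0.10), Col16a1 (-1.24 to 0.63), Col1a2 (-0.66 to 0.75) and Emcn (-0.23 to 0.42) between KO + LEENE and WT + GFP, and Myh11 (-1.29 to 0.67) and Timp4 (-2.38 to 0.053) between KO + GFP and WT + GFP. With only the 4 libraries compared, KO + LEENE against WT + GFP gave -0.011 for Col1a2 and -0.0064 for Emcn. Between the knockout groups Col22a1 gave 0.020 without a filter, and Timp4 gave 0.0048 with DESeq2 size factors, 0.20 in DESeq2 and 0.096 without a filter. Over all alternatives, 1871 of the values kept their direction and side of the threshold, 60 lost a call, 15 gained one and 36 turned sign. Depth limits the chains under 10 reads, and 2 libraries a group limit every P value.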
